A study of Mus musculus with 25 samples.

Results

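The genera Anaerostipes, Butyribacter and Coprococcus, all known for butyrate formation, were followed through the fecal bacteria of ovariectomized mice. An amplicon sequence variant (ASV) is a distinct amplicon sequence counted as 1 unit. An ASV was a member when the genus field of its deposited taxonomy named one of these 3 genera, and 16 of the 1555 ASVs in the table did. Anaerostipes held 3 of them, Butyribacter 11 and Coprococcus 2, and all 16 were placed in the family Lachnospiraceae, which held 643 ASVs in 24 named genera. Each genus carried a single species name in the table, Anaerostipes hadrus, Butyribacter intestini or Coprococcus comes.

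The study read full-length 16S rRNA genes by PacBio sequencing of stool DNA from C57BL/6 mice, with 25 libraries in 5 groups of 5. Sham animals were the comparison group without ovary removal, as the name is usually used, and the other 4 groups shared the ovariectomy (OVX). One of them, named OVX, carried no further agent in its label, and the others were OVX with GEX, with PBS and with FMT. The design text describes estrogen deficiency and a traditional medicine. GEX is not spelled out in the labels, PBS is a buffered saline and FMT is the usual abbreviation of fecal microbiota transplantation, whose donors the labels do not name. Ages, doses, times and cages are not in the labels, and the sex field reads male for every animal, which is at odds with ovariectomy, so sex is not stated. Nothing in the labels says that the libraries of a group came from separate cages or litters, and the p-values below measure only the spread between these libraries.

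Butyrate is a short-chain fatty acid that gut bacteria form by fermenting fiber, starch or the lactate and acetate released by other bacteria. It is a main fuel of the cells that line the colon, and in mice short-chain fatty acids have been found to restrain osteoclasts, the cells that resorb bone. Butyrate was not measured here, and a genus name does not show what a strain produced. A share below is the percentage of a library's counts, so a lower share of one genus and a higher share of all others cannot be told apart. The number of 16S gene copies per cell also differs between bacteria, so shares of different genera are not ratios of cells.

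The library totals ran from 8498 to 22404 counts with a median of 10123, and the floor used for an undetected genus was 3 counts, which for the smallest library is 0.0353% of its counts. Floors and the intervals given below cover counting error only, because amplicon reads are not independent molecules. One library, OVX+FMT replicate 4, stood apart from its group. Its mean Bray-Curtis distance, a dissimilarity of ASV shares that runs from 0 to 1, was 0.593 to the other OVX+FMT libraries, whose own values were 0.388 to 0.460. Its distance to the Sham libraries was 0.495, against 0.5003 to 0.604 for the others of its group. Lachnospiraceae made up 37.3% of its counts and 3.29% to 9.78% in the other 4 OVX+FMT libraries. Results that rest on this library are therefore given with and without it. Outside its group such values were not unique to it. OVX+GEX replicate 2 had a mean distance of 0.603 to its own group and 32.1% Lachnospiraceae, and OVX replicate 2 held 38.6% Lachnospiraceae.

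The 3 genera were unequal in size. Anaerostipes had 2659 counts in 24 of the 25 libraries, which was 0.884% of the 300831 counts in the table. Butyribacter had 500 counts, 0.166% of the total, in 11 libraries. Coprococcus had 24 counts, 0.00798% of the total, in 5 libraries. Together they took 1.44% ± 0.585 (SD, n = 5) of the counts in Sham, 1.06% ± 0.728 in OVX, 1.26% ± 1.01 in OVX+GEX, 1.02% ± 0.526 in OVX+PBS and 0.531% ± 0.593 in OVX+FMT. That sum is mainly Anaerostipes in every group but OVX+FMT, where 1 library with Butyribacter supplied much of it.

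**Figure D1:**
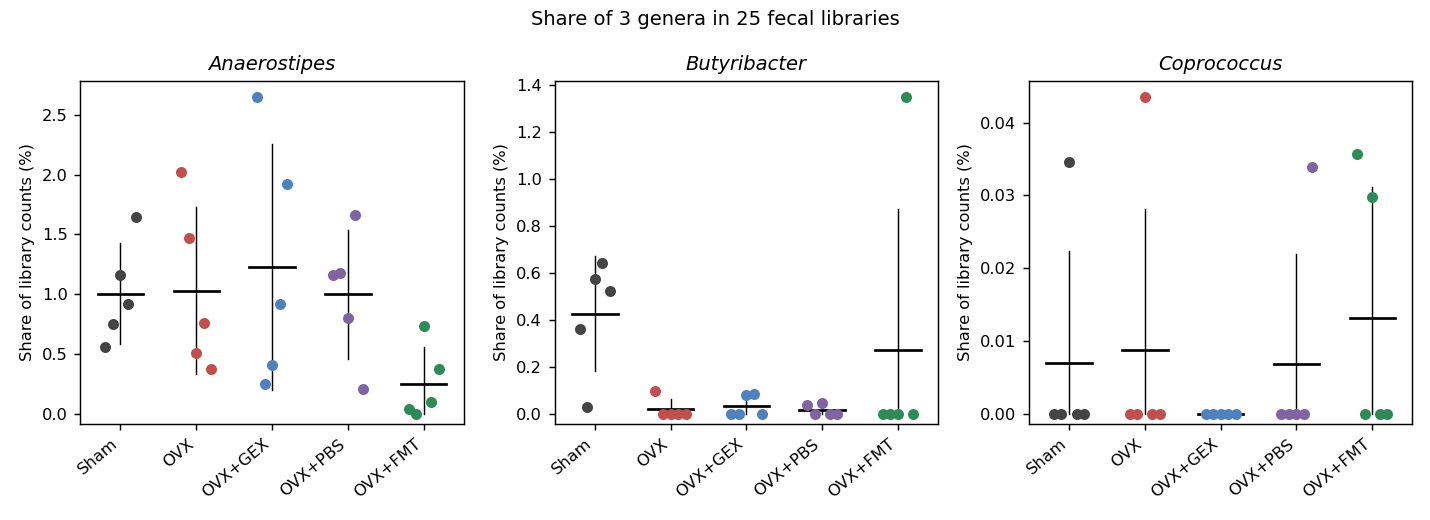
Share of counts (percent, one panel per genus) in each library of the 5 groups, with the group mean as a horizontal line and 1 SD either side, ended at 0, as a vertical line. Anaerostipes lies lowest in OVX+FMT, Butyribacter is present in all Sham libraries and in few others, and Coprococcus has counts in 5 libraries in all.

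Anaerostipes, which in human isolates turns lactate and acetate into butyrate, was at about 1% in every group except OVX+FMT. Its shares in Sham were 0.555%, 0.748%, 1.16%, 0.915% and 1.65%, with a mean of 1.00% ± 0.423 (SD, n = 5). In OVX they were 2.03%, 1.47%, 0.511%, 0.761% and 0.373%, with a mean of 1.03% ± 0.700. The OVX libraries lay on both sides of the Sham libraries, and the groups overlapped.

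With OVX+GEX the Anaerostipes shares were 2.65%, 0.251%, 0.405%, 0.918% and 1.92%, a mean of 1.23% ± 1.03 (SD, n = 5). This was the widest spread of any group, and it held the highest share of all 25 libraries. In OVX+PBS the shares were 1.16%, 1.17%, 0.799%, 1.66% and 0.204%, a mean of 1.00% ± 0.540. Ordered by mean, OVX+GEX stood above OVX, Sham and OVX+PBS, and neighbours in that order were separated by less than their SD.

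In OVX+FMT the Anaerostipes shares were 0.0357%, 0%, 0.735%, 0.0949% and 0.375%, and their mean was 0.248% ± 0.310 (SD, n = 5). The library at 0 had 0 of 10546 counts, which allows a share of up to 0.0284%. All 5 OVX+FMT libraries lay below the OVX+PBS median, and 3 of them lay below the lowest OVX+PBS library. The mean difference was -0.752 percentage points, with an exact two-sided permutation p of 0.0317 over 252 splits and an adjusted p of 0.482 over the 81 genera tested. Leaving out each library in turn moved that exact permutation p between 0.0159 and 0.0714, so single libraries carried it across the 0.05 line. Without OVX+FMT replicate 4 the OVX+FMT mean was 0.286%.

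The count model gave the same picture for Anaerostipes. The edgeR quasi-likelihood test, fitted on all 25 libraries with TMM scaling and Benjamini-Hochberg adjustment over 81 genera, put OVX+FMT below OVX+PBS by a log2 fold change of -1.83 (SE 0.88), with an adjusted p of 0.308. Across alternatives this adjusted p ran from 0.0595 to 0.584, and limma on centred log-ratios gave the lowest of them with an estimate of -3.60. The median log2 fold change of all genera in that comparison was 0.62, and relative to it Anaerostipes was at -2.45. No genus passed the test there (percent called 0%), although 12 had an unadjusted p under 0.05 and limma on centred log-ratios called 1. None of the 3 member genera passed.

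For the other comparisons the Anaerostipes estimates were smaller than their standard errors. The edgeR log2 fold change was 0.49 (SE 0.85, adjusted p = 0.872) for OVX against Sham. It was 0.45 (SE 0.85, adjusted p = 0.979) for OVX+GEX against OVX and 0.08 (SE 0.85, adjusted p = 1.0) for OVX+PBS against OVX. Averaged over the 4 OVX groups against Sham it was 0.19 (SE 0.68, adjusted p = 0.936). An approximate interval for OVX against Sham, built from the estimate and its SE, ran from -1.17 to 2.15 on the log2 scale.

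**Figure D2:**
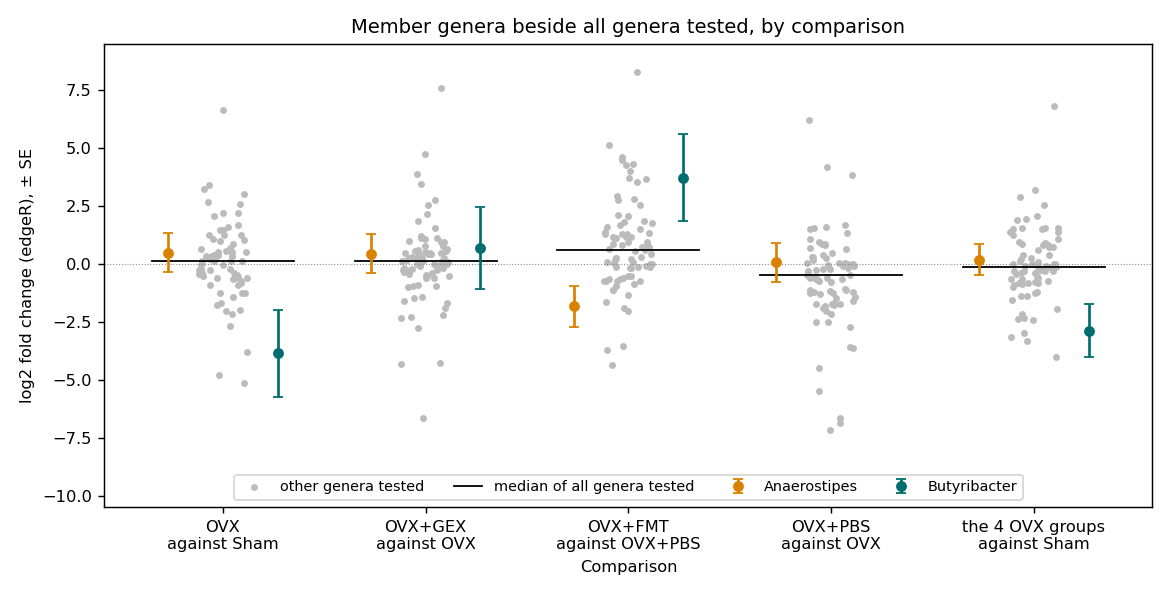
Log2 fold change from edgeR (vertical axis) in the 5 comparisons, with Anaerostipes and Butyribacter as coloured points with their SE, the other genera tested as grey points and the median of all genera as a black line. Butyribacter has no point for OVX+PBS against OVX, where both group means are under the floor, and Coprococcus has none in any comparison. Anaerostipes is at -1.83 for OVX+FMT against OVX+PBS, where the median of all genera is 0.62.

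The Anaerostipes counts came almost wholly from 2 ASVs. ASV_30 had 1931 counts in 24 libraries, 72.6% of the genus, and ASV_61 had 726 counts in 22 libraries, 27.3% of the genus. The third, ASV_1516, had 2 counts in 1 OVX+GEX library. ASV_30 and ASV_61 kept a nearly fixed ratio to each other, 2.66 counts of the first for each count of the second when summed over all libraries.

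ASV_61 made up 27.3% of the pair's summed counts (95% Wilson interval 25.7% to 29.1%). Summed within groups it was 29.0% in Sham, 25.95% in OVX, 26.4% in OVX+GEX, 28.3% in OVX+PBS and 24.8% in OVX+FMT. Of the 24 libraries with counts, 22 had a Wilson interval that held the pooled share, and the exceptions were OVX+GEX replicate 3 at 44.4% and OVX+PBS replicate 4 at 19.7%. In the 21 libraries with at least 20 counts of the pair, the share ran from 16.7% to 44.4% with a median of 27.1%. ASV_61 was at 0 in 2 OVX+FMT libraries where ASV_30 had only 8 and 9 counts.

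Across the 25 libraries the shares of the pair, as percentages of library counts, had a Pearson r of 0.945 and a Spearman rho of 0.959. Both are shares of the same library total, and this is given as a description. For OVX+FMT against OVX+PBS the edgeR ASV test over 379 ASVs gave a log2 fold change of -1.78 (SE 1.10, adjusted p = 0.435) for ASV_30 and -2.01 (SE 1.4999, adjusted p = 0.616) for ASV_61. No ASV passed in that comparison (percent called 0%).

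**Figure D3:**
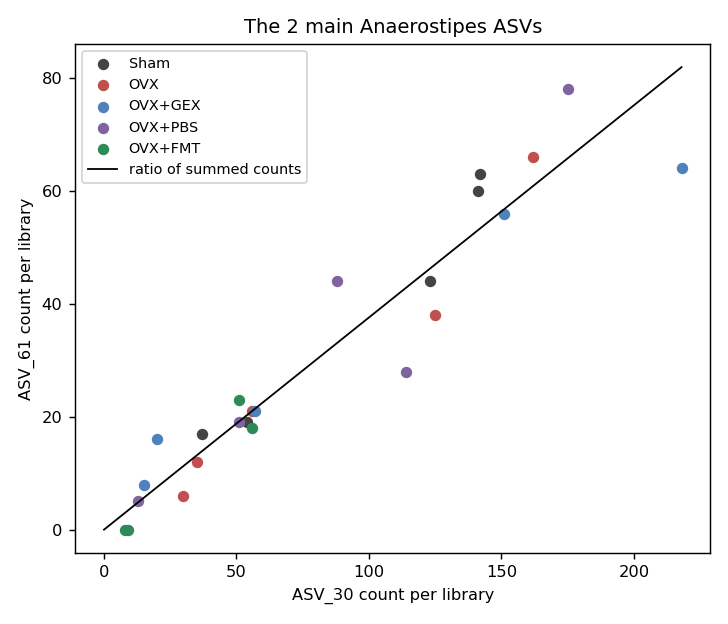
Counts of ASV_61 (vertical axis) against counts of ASV_30 (horizontal axis), one point for each of the 24 libraries with counts of the pair, coloured by group, with a line at the ratio of the summed counts. The points of all 5 groups follow the line, and the libraries with fewest counts are OVX+FMT libraries.

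Butyribacter, a genus described from human feces for forming butyrate, was found in all 5 Sham libraries and in 6 of the 20 libraries of the OVX groups. Its shares in Sham were 0.360%, 0.0307%, 0.576%, 0.643% and 0.523%, from 35, 3, 100, 144 and 53 counts, with a mean of 0.426% ± 0.245 (SD, n = 5). Sham replicate 2, with 3 counts, was at the floor, and the other 4 lay well above it.

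In OVX the genus was seen in replicate 1 only, with 11 counts or 0.0978%, and was at 0 in the other 4 (mean 0.0196% ± 0.0437, SD, n = 5). Replicates 3 and 4 of OVX+GEX had 7 counts each, shares of 0.0788% and 0.0824%, and the other 3 had none (mean 0.0322% ± 0.0442). OVX+PBS had 8 counts in replicate 1 and 4 in replicate 3, shares of 0.0368% and 0.0457%, and none in the other 3 (mean 0.0165% ± 0.0228). In these groups every library was below the Sham mean by a wide margin, but the lowest Sham library, at 0.0307%, lay below the 5 of them that held the genus.

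OVX+FMT replicate 4 was the exception to the low values after ovariectomy. It had 128 Butyribacter counts of 9484, a share of 1.35% (95% Wilson interval 1.14% to 1.60%), the highest of all 25 libraries. The other 4 OVX+FMT libraries were at 0, and the mean of the group was 0.270% ± 0.604 (SD, n = 5). This is the library that stood apart from its group in overall composition and held 37.3% Lachnospiraceae, and the part of that in its Butyribacter share was not tested. Set against Lachnospiraceae counts alone, Butyribacter was 3.61% in this library, 1.38% ± 0.888 in Sham and a mean of 0.145% in OVX, so its share in this library was above the Sham mean within the family as well. OVX replicate 2 and OVX+GEX replicate 2, with 38.6% and 32.1% Lachnospiraceae, had no Butyribacter counts.

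For OVX against Sham, 4 of 5 OVX libraries lay below the lowest Sham library and all 5 below the Sham median. The Butyribacter difference was -0.407 percentage points, with an exact two-sided permutation p of 0.0159 and an adjusted p of 0.321 over 81 genera. Leaving out each library in turn gave an exact permutation p between 0.00794 and 0.0238 over 126 splits. The edgeR log2 fold change was -3.85 (SE 1.88), with an adjusted p of 0.406, and the adjusted p ran from 0.117 to 0.839 over the alternatives. No genus passed either test in this comparison (percent called 0%), 9 had an unadjusted edgeR p under 0.05, and DESeq2 and limma each called 1. Without OVX replicate 1 all remaining OVX libraries were at 0, and the Sham mean was then 14.2 times their mean floor of 0.0301%. Sham replicate 2, at 0.0307%, was itself near that floor.

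Taken over the 4 OVX groups, Butyribacter averaged 0.0846% ± 0.300 (SD, n = 20) against 0.426% in Sham, and 19 of the 20 libraries lay below the Sham median. The difference of -0.342 points had an exact permutation p of 0.0247 and an adjusted p of 0.0951, in a test that called 10 of 81 genera (percent called 12.3%). The edgeR log2 fold change was -2.88 (SE 1.15), with an adjusted p of 0.116, where 1 of 81 genera passed (percent called 1.23%). None of the 3 member genera passed in either test, and no genus had groups that did not overlap (percent called 0%).

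In the exact permutation test 1 library decided that call for Butyribacter. Without OVX+FMT replicate 4 the remaining 19 libraries averaged 0.0180% ± 0.0332 (SD, n = 19) and reached at most 0.0978%. The difference was then -0.408 points, with an exact permutation p of 0.000141 and an adjusted p of 0.0114, in a test that now called 18 of 81 genera (percent called 22.2%). With the OVX groups also pooled as 1 group, the edgeR log2 fold change was -1.999 (adjusted p = 0.431) with that library and -4.01 (adjusted p = 0.0166) without it, where 3 of 77 genera passed (percent called 3.9%). With all libraries, limma on centred log-ratios also passed Butyribacter (-3.96, adjusted p = 0.0363), among 7 of 81 genera (percent called 8.64%). Leaving out any 1 of the other 24 libraries left the adjusted exact permutation p above 0.05.

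**Figure D4:**
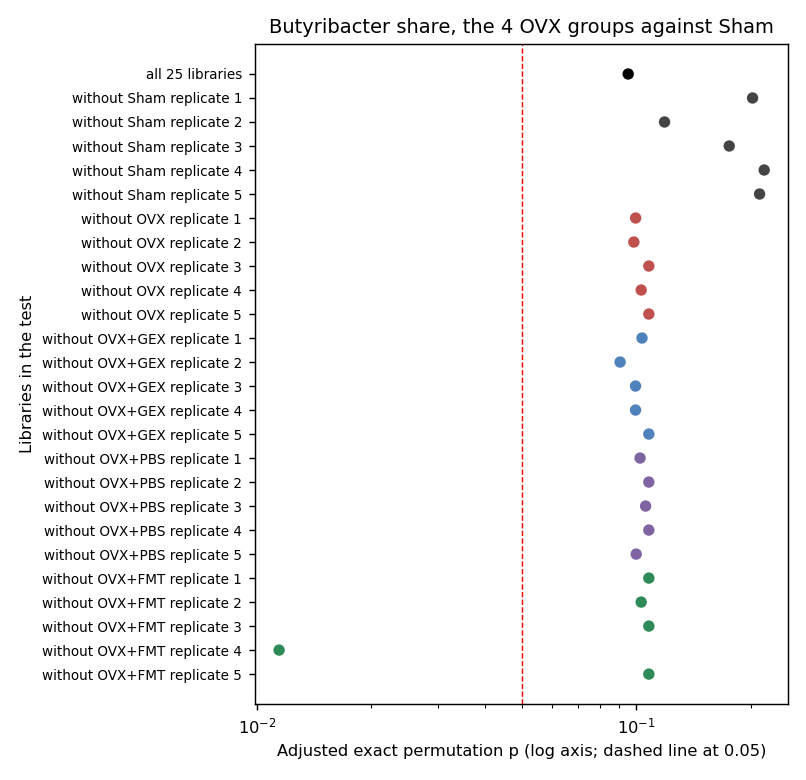
Adjusted exact permutation p (horizontal axis, log scale) for the Butyribacter share in the 4 OVX groups against Sham, with all 25 libraries (top) and with each library left out in turn, coloured by group; the dashed line is at 0.05. The value is 0.0951 with all libraries, and the test without OVX+FMT replicate 4 is the one to the left of the line, at 0.0114.

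Of the 81 genera tested, 27 were at 0 in 10 or more of the 20 libraries of the OVX groups. Among the 50 genera with counts in all Sham libraries, 3 (6%) were. That choice runs through the group in which Butyribacter was high, so the share is a description. Butyribacter and Faecalicatena, another genus of the family, were each at 0 in 14 of them, and Mucispirillum, a bacterium of the mucus layer in rodents, was at 0 in 10. For genera with low shares a count of 0 is also the more likely outcome at this depth, and this was not tested.

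Between the treatments no difference in Butyribacter passed a test. For OVX+GEX against OVX the edgeR log2 fold change was 0.69 (SE 1.77, adjusted p = 0.979), with no genus called (percent called 0%). There the OVX mean of 0.0196% was under its floor of 0.0294%, and the OVX+GEX mean of 0.0322% was close to its floor of 0.0310%. For OVX+FMT against OVX+PBS the edgeR log2 fold change was 3.73 (SE 1.88, adjusted p = 0.308), and this rested on OVX+FMT replicate 4. Without that library all OVX+FMT libraries were at 0 and the sign turned, and the exact permutation test of mean shares with all libraries gave p = 1.0. For OVX+PBS against OVX both group means were under the floor and no fold is given (edgeR adjusted p = 0.997, percent called 0%). The edgeR test of any difference among the 5 groups gave Butyribacter an adjusted p of 0.249 and Anaerostipes 0.419, where 3 of 81 genera passed (percent called 3.7%). Without OVX+FMT replicate 4 the edgeR adjusted p for Butyribacter was 0.0250, where 8 of 77 genera passed (percent called 10.4%).

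The 11 Butyribacter ASVs were spread thinly, and no single one was found in more than 3 of the 5 Sham libraries. The most abundant were ASV_250 with 113 counts in 6 libraries, ASV_282 with 98 in 4, ASV_325 with 85 in 3, ASV_349 with 77 in 4 and ASV_576 with 31 in 2. The other 6 had 30 counts or fewer. Sham libraries held 4, 1, 4, 5 and 3 of the ASVs, and pairs of Sham libraries had 0 to 2 in common. The leading ASV was a different one in each Sham library, namely ASV_576, ASV_747, ASV_282, ASV_250 and ASV_325.

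Of the 11 Butyribacter ASVs, 10 were seen in Sham and 8 in the OVX groups, or 4 in the OVX groups without OVX+FMT replicate 4. The libraries of OVX, OVX+GEX and OVX+PBS that held the genus had 1 ASV each. OVX+FMT replicate 4 held 7 ASVs, more than any Sham library, and all 7 were also seen in Sham, where they made up 7 of the 10. Its leading ASV was ASV_349, with 21.9% of its Butyribacter counts. Thinned to 8498 reads, the expected number of Butyribacter ASVs per library was 3.37 ± 1.48 (SD, n = 5) in Sham, against means of 0.2 in OVX, 0.4 in OVX+GEX, 0.396 in OVX+PBS and 1.40 in OVX+FMT. At equal depth the mean number of Butyribacter ASVs was thus still highest in Sham. The same counts over all 1555 ASVs are not given beside these. The ASVs seen in Sham, missing elsewhere or shared with OVX+FMT replicate 4 are thus a description, not a trait particular to this genus.

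**Figure D5:**
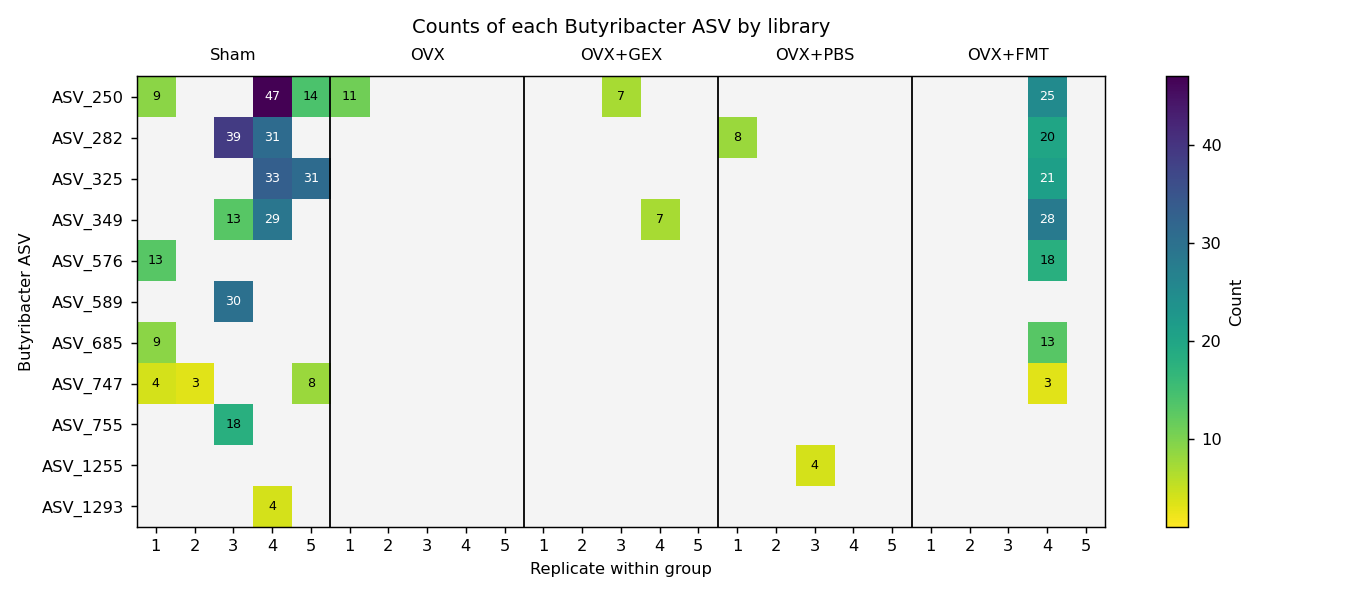
Count (colour and printed number, empty for 0) of each Butyribacter ASV (vertical axis) in each of the 25 libraries (horizontal axis, replicates by group). Sham libraries hold 1 to 5 ASVs each in different sets, most libraries of the OVX groups hold none, and OVX+FMT replicate 4 holds 7.

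ASV_250 was the single Butyribacter ASV with enough counts for the ASV test. Its edgeR log2 fold change was -2.06 (SE 2.34, adjusted p = 0.903) for OVX against Sham, where no ASV passed (percent called 0%). For the 4 OVX groups against Sham its adjusted p from edgeR was 0.119, in a comparison where 45 of 379 ASVs passed (percent called 11.9%). That value was 0.0459 without OVX replicate 1, 0.0462 without OVX+GEX replicate 3 and 0.0235 without OVX+FMT replicate 4, and it reached 0.562 with another library left out and 0.640 under other settings. ASV_250 had no counts in OVX+PBS, and each of those 3 libraries was the only one of its group to hold it, so the mean over groups is poorly defined in these fits. How many of all ASVs passed in these fits is not given here, so the values under 0.05 are not shown to be particular to ASV_250. With no filter on low counts, 9 of the 16 member ASVs passed, all of them Butyribacter ASVs with at least 1 OVX group at 0, in a test that called 479 of 1555 ASVs (percent called 30.8%). ASV_30 and ASV_61 did not pass in any of the 5 comparisons, so 0 of the 3 member ASVs tested were called.

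Coprococcus, gut cocci whose species include butyrate formers, was near the limit of detection. It had 6 counts in Sham replicate 3 (0.0345%), 4 in OVX replicate 3 (0.0435%), 3 in OVX+PBS replicate 5 (0.0340%), 8 in OVX+FMT replicate 1 (0.0357%) and 3 in OVX+FMT replicate 3 (0.0298%). OVX+GEX had none. The counts were from ASV_790, with 16 counts in 4 libraries, and ASV_1043, with 8 counts in 1. All group means were under the floor, so no fold is given and no order of the groups can be read. The edgeR adjusted p ran from 0.591 to 0.958 over the 3 comparisons of OVX against Sham, OVX+GEX against OVX and OVX+FMT against OVX+PBS.

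The 3 genera showed little correlation across libraries. Spearman correlations of centred log-ratio values over the 25 libraries, which share the same depth and the same closed total, were between -0.24 and 0.04 for the 3 pairs. With Butyribacter at 0 in 14 libraries and Coprococcus in 20, a common movement could hardly be seen. Of 80 other genera tested, Anaerostipes was most like Harryflintia (0.585), Lawsonibacter (0.458) and Bacteroides (0.418). Butyribacter was most like the bracketed genera [Bacteroides] (0.597) and [Eubacterium] (0.495) and like Anaerotaenia (0.479), and without OVX+FMT replicate 4 these values were 0.544, 0.429 and 0.412. Butyribacter was at 0 in 14 of the 25 libraries, [Bacteroides] in 20 and Anaerotaenia in 18, so these values rest largely on libraries at 0. The values for Coprococcus, the highest being 0.807 with Bifidobacterium, come from a genus at 0 in 20 libraries.

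Of 25 other genera known for butyrate formation, 13 had counts and 11 were tested. None passed in the first 4 comparisons, and 1 rose and 0 fell in the 4 OVX groups against Sham. The one that rose was Lawsonibacter, whose human isolates form butyrate. It averaged 0.333% ± 0.201 (SD, n = 5) in Sham and 1.56% ± 0.920 (SD, n = 20) in the OVX groups, an edgeR log2 fold change of 2.88 (SE 0.68, adjusted p = 0.0176). This call was lost without Sham replicate 1, 2 or 5. In that comparison 2 of the 11 had a positive and 9 a negative estimate, and their median was -0.60 beside -0.13 for all 81 genera, or -0.46 over the 10 with counts in every group. For OVX against Sham the median was -0.29 beside 0.15 for all genera.

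Lactate formers, whose product Anaerostipes can use, had 4 tested genera of 15 named, and 0 rose or fell in any comparison. Of the 4, 2 had no counts at all in OVX+PBS, so a median over them is not a measured change for the comparisons that use this group. Ligilactobacillus, the most abundant of them, averaged 11.9% ± 6.37 (SD, n = 5) in Sham and 23.6% ± 11.5 (SD, n = 20) in the OVX groups (edgeR adjusted p = 0.0867). For OVX+FMT against OVX+PBS, where Anaerostipes was at -1.83, its log2 fold change was 0.82 (SE 0.56, edgeR adjusted p = 0.427). Among the other named genera of Lachnospiraceae, 20 of 21 were tested and 0 passed. In the 4 OVX groups against Sham their median was -0.82, with 2 positive and 18 negative, and Butyribacter was at -2.88. Of those 20 genera, 3 had a group without counts, and the median of the other 17 was also -0.82. The Anaerostipes estimate of 0.19 was within its SE of 0, and its 2 main ASVs had estimates of -0.47 (ASV_30) and -0.66 (ASV_61), so its side is not settled.

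As a share of Lachnospiraceae counts, Anaerostipes averaged 3.06% in Sham, 6.39% in OVX, 8.69% in OVX+GEX, 7.59% in OVX+PBS and 4.44% in OVX+FMT. Butyribacter averaged 1.38%, 0.145%, 0.228%, 0.0896% and 0.723% in the same order. The OVX+FMT mean of Anaerostipes had an SD of 5.72 and rested on replicates 3 and 5, at 9.96% and 11.4%. That mean was 3.05% without replicate 3, about the Sham mean, and 2.70% without replicate 5. It was 5.40% without replicate 1, 5.54% without replicate 2 and 5.48% without replicate 4. Butyribacter within the family was highest in Sham, also with its single high OVX+FMT library included. These within-family shares are given as a description with no test.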

How the data were processed

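The authors deposited 1 table of whole-number read counts per ASV with a taxonomy of 7 ranks, made from a BIOM file per the file headers. The submitters' processing notes name Subread without a role. The sources used here do not give the primers, the denoiser, the filters or the database behind the taxonomy. Of the values above 0, none was 1 and 464 were 2. Columns were matched to samples by name, and 5 columns spelled OVX+GES were taken as OVX+GEX. Columns of no known sample numbered 0.

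Counts were summed by genus. Genera (81) and ASVs (379) with at least 3 counts in at least 5 libraries were tested with edgeR 4.0.16 in R 4.3.3, using TMM scaling, 1 quasi-likelihood fit over all 25 libraries and Benjamini-Hochberg adjustment, with an adjusted p under 0.05 as the threshold. Of the members, the 3 genera and 3 of the 16 ASVs passed this filter. The SE of an edgeR estimate was derived from the test, as its absolute log2 fold change divided by the square root of the F statistic. The 5 comparisons were OVX against Sham, OVX+GEX against OVX, OVX+FMT against OVX+PBS, OVX+PBS against OVX, and the mean of the 4 OVX groups against Sham, beside a test of any difference; OVX and OVX+PBS each enter more than 1 comparison. Mean shares were compared by exact permutation (scipy 1.17.1), adjusted over 81 genera. The fits were tested on simulated data. Alternatives were other scalings, DESeq2 1.42.0, centred log-ratios (0.5 added to each count) in limma 3.58.1, other filters, fewer samples, a replicate block, and leaving out each library.

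Pairing by replicate number required every same-numbered pair of 2 groups to have deviations correlated above 0.1, and 0 of the 10 pairs of groups met this. OVX and OVX+GEX came closest among the groups compared, with 4 of 5 above (0.0913 to 0.201), and over all 50 pairs 18 were above (median 0.0611). Over all 300 pairs of libraries the smallest Bray-Curtis distance was 0.266, so no table column repeats another. Genera named in the text were the members, list members past the test and the 3 genera most like each member. ASVs named by rule were those past the test and the 5 with most counts in each genus. Other ASVs, Faecalicatena and Mucispirillum were named after their values were seen. The members and the lists were chosen with earlier results of these data known.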

Additional observations from a re-analysis of the deposited data

Results flagged for a closer look

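Shares of each member genus were examined in each group of 5 for a library whose gap to its nearest neighbour, divided by the whole range of the group, was above Dixon's limit of 0.71. The limit is set for about 1 such library in 20 groups by chance, a rate that does not hold for groups mostly at 0. In 14 groups with any counts, 5 such libraries were found. In all 5 the other libraries of the group were at 0, so the ratio was 1 by construction. Butyribacter was at 1.35% in OVX+FMT replicate 4 and at 0.0978% in OVX replicate 1. Coprococcus was at 0.0345% in Sham replicate 3, 0.0435% in OVX replicate 3 and 0.0340% in OVX+PBS replicate 5, each from 6 counts or fewer.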

How the results depend on the processing

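For the member genera, no comparison of 2 groups gained a call under any alternative run. Only the Butyribacter estimate for OVX+FMT against OVX+PBS reversed: it was -0.50 with limma on centred log-ratios (adjusted p = 0.898) and -4.15 without OVX+FMT replicate 4 (edgeR adjusted p = 0.263), where the group is all at 0 and the fitted size is no bound; with libraries left out it ran from -4.15 to 4.31. For the 4 OVX groups against Sham, the members called in the genus test went from 0 to 1, always Butyribacter, with limma (-3.96, adjusted p = 0.0363) and with the OVX groups pooled and OVX+FMT replicate 4 left out. Leaving out each library gave 0 to 1, with a call without OVX replicate 1 (edgeR adjusted p = 0.0384) and without OVX+FMT replicate 4 (edgeR adjusted p = 0.00166), fits in which 1 group is all at 0 and the mean of group coefficients is poorly defined. Of all genera tested, 4 were called without OVX replicate 1 and 5 without OVX+FMT replicate 4, against 1 in the main fit. Pooled as 1 group and without OVX replicate 1, the edgeR adjusted p of Butyribacter was 0.334, and with only the 20 libraries under 12000 counts it was 0.460. DESeq2 gave 0.363. The replicate block also gave 1 call, Butyribacter at -4.26 (edgeR adjusted p = 0.0478), but the numbers did not meet the criterion for pairing, and 5 of 25 libraries correlated best with their own number. The block changed no other member call. Exact share tests called 1 member with centred log-ratios (adjusted exact p = 0.0412) and 0 to 1 with libraries left out. The test of any difference then called 0 to 1. With no filter 9 member ASVs passed, with 30.8% of all ASVs, and 0 to 1 did with libraries left out. All-genus calls of that centred log-ratio test and all-ASV calls of those left-out fits are not given. The butyrate producer list (1 called) had 2 with plain totals and 0 with libraries under 12000 counts. Lactate formers (0 called) had 1 with DESeq2, limma, the block or pooled groups without OVX+FMT replicate 4. Both lists had 0 to 1 with libraries left out. Other Lachnospiraceae (0 called) had 2 with plain totals, 1 with DESeq2, limma, no filter or the block, and 0 to 2 with libraries left out. Over all genera the 1 call for the 4 OVX groups against Sham became 7 with plain totals, DESeq2 or limma, 6 with no filter, 5 with the block, 3 with pooled groups without OVX+FMT replicate 4 and 0 with libraries under 12000 counts. The 3 calls of the test of any difference became 1 with plain totals or the block, 7 with DESeq2, 5 with no filter and 0 with the stricter filter or libraries under 12000 counts. The causes of these moves were not tested. Plain totals moved the median log2 fold change of all genera from 0.15 to -0.22 for OVX against Sham and from -0.13 to -0.69 for the 4 OVX groups; relative to it, Butyribacter was at -4.00 and -4.13 in the first, and at -2.75 and -2.64 in the second. The fit with only the groups compared equals the full fit for the 4 OVX groups and was not run there, and the stricter filter left no value for Coprococcus. Estimates within 1 SE of 0 were followed by their adjusted p. The pooling of the OVX groups and the restriction to libraries under 12000 counts were chosen after seeing the data. Depth limits Coprococcus, whose group means are all under the floor. The Butyribacter zeros include OVX+FMT replicates 1 and 5, with 22403 and 19736 counts and floors of 0.0134% and 0.0152%.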
